A study of Homo sapiens with 11 samples.

Results

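Reh cells transfected with a precursor oligonucleotide of miR-100 were set against the same cells transfected with an oligonucleotide of scrambled sequence. The arrays were taken by their titles, which name miR-100 on 3 arrays and the scrambled control on 2, together 5 of the 11 arrays in the series. Reh is an established human line of B-cell precursor leukaemia that carries the ETV6-RUNX1 fusion, and the series concerns how it resists vincristine, a tubulin-binding drug. All cells profiled, those of the control included, were infected with a virus beforehand and stably expressed miR-125b, so the comparison shows miR-100 on top of miR-125b. The promoter that drives miR-125b is not named in the labels, which describe lines kept in culture after infection and no single clone. Each oligonucleotide was given at 66 µM, a fresh dose followed after 72 h, and RNA was taken 48 h after the second transfection. A further 3 arrays of miR-99a at 66 µM and 3 of both oligonucleotides at 33 µM each entered the fits, and they are used here only as comparators of miR-100. The control arrays carry the replicate numbers 1 and 2, so miR-100 replicate 3 has no control array of its number and is shown apart. The labels mention incubation in triplicate but not whether the arrays come from separate cultures, so the p-values measure the spread between these arrays, which may be technical.

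A microRNA acts within an Argonaute protein, where its seed, bases 2 to 8 from the 5′ end, pairs with complementary sites that lie mostly in the 3′ untranslated regions of messenger RNAs and lowers their stability or translation. Members of the miR-99/100 family share a seed, and in several tumour types they are known to repress MTOR, the kinase at the centre of growth signalling, and IGF1R, the receptor of insulin-like growth factors. The genes of miR-100 and of 1 of the copies of miR-125b lie within the same host transcript, MIR100HG.

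The mature sequences show how close the oligonucleotides compared are to one another, with the seed in capitals. They are the reference miRNAs of RefSeq on GRCh38.p14, and the sequence of the transfected precursors themselves is not given in the sources used here.
hsa-miR-100-5p: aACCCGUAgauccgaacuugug
hsa-miR-99a-5p: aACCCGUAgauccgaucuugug
hsa-miR-99b-5p: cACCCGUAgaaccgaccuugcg
hsa-miR-125b-5p: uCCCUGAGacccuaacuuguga

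The first lies at chr11:122152275-122152296 on the minus strand, the second at chr21:16539101-16539122 on the plus strand, and the third at chr19:51692618-51692639 on the plus strand. The sequence of miR-125b-5p is held at chr11:122099809-122099830 on the minus strand and again at chr21:16590253-16590274 on the plus strand. Counted from 1 at the 5′ end, with the base of miR-100 first, miR-99a differs from miR-100 by A16U, outside the seed. Another member, miR-99b, differs by A1C, U11A, A16C and U21C, and its seed is also the same. Among the 2370 mature names in the RefSeq table used, these 3 were the ones with this seed. The seed of miR-125b, the miRNA that all cells expressed, is a different one.

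Expression was read as log2 values of 19775 genes, each represented by its brightest probe set. The medians of all probe sets lay between 5.96 and 5.98 in the miR-100 arrays and were 5.98 and 5.95 in the control arrays. Across genes, miR-100 replicates 1 and 2 correlated at 0.997 with each other and at 0.991 and 0.992 with replicate 3, and the control arrays correlated at 0.998. Replicate 3 was closer to the arrays of the other oligonucleotides that carry its number, at 0.998 with miR-99a replicate 3 and 0.998 with replicate 3 of both. The share of genes above a level of 8 was 27.3%, 27.0% and 29.5% in miR-100 replicates 1, 2 and 3, against 28.1% and 28.7% in the control arrays, so replicates 1 and 2 lay below both control arrays and replicate 3 above them. Markers of the B lineage were above 8 in all 5 arrays for 20 of 24 measured genes, and CD34, CD38, VPREB1 and IKZF3 were the exceptions. None of 19 T and NK cell, 15 myeloid or 11 erythroid and platelet markers passed that level, and of 15 fibroblast and epithelial markers VIM did. The mean levels of those marker lists were 5.82 to 6.34 in the miR-100 arrays and 5.84 to 6.32 in the control arrays.

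Over all arrays, ND6 had the largest difference from control among the genes named by rank. It encodes a subunit of respiratory complex I and is the messenger RNA read from the light strand of the mitochondrial genome, while the other mitochondrial messenger RNAs are read from the heavy strand. ND6 stood at 9.59, 9.57 and 9.38 in the miR-100 arrays, against 10.06 and 9.95 in the control arrays. The lowest control array was above the highest miR-100 array by more than the range of either group. The log2 difference was -0.50 ± 0.13 (SE, n = 3 against 2), with a 95% interval of -0.78 to -0.21, a limma unadjusted p of 0.0026 and an adjusted p of 1.0. In a bulk profile, fewer cells that carry a transcript and less of it per cell cannot be told apart. Among heavy-strand messages, chosen after their values were seen, the log2 difference over all arrays was 0.05 for ND2, 0.03 for ND4, 0.02 for COX1, 0.03 for COX2, 0.01 for ATP6 and -0.01 for COX3. These average opposite replicates: in replicates 1 and 2 the values were 0.22, 0.14, 0.12, 0.13, 0.12 and 0.23 in that order, and in replicate 3 all 6 were below control, by -0.49 to -0.16. These are deposited values, and the size in replicates 1 and 2 varied with the setting. Over the settings tried the lowest were 0.14, 0.09, 0.005, 0.004, 0.04 and -0.06 in the same order. The highest were 0.31, 0.18, 0.19, 0.18, 0.15 and 0.52. Over all settings tried, with arrays left out in turn, the difference of ND6 over all arrays ranged from -0.55 to -0.35. The values of ND6 come from 1 probe set, and copies of mitochondrial sequence in the nuclear genome make its identity less certain.

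No gene passed an adjusted p of 0.05 in limma's test over all arrays, 0.0% of the 19775 tested. An unadjusted p under 0.05 was reached by 305 genes (1.54%), of which 130 (0.657%) were higher with miR-100 and 175 (0.885%) lower. The miR-100 and control arrays did not overlap in 2643 genes (13.4%), of which 1419 (7.18%) were higher and 1224 (6.19%) lower. Without miR-100 replicate 3 the count at an unadjusted p under 0.05 was 1585, while the count past the adjusted threshold was again 0. The fit over all arrays has no term for replicate 3, so its spread includes the differences of replicate 3 from replicates 1 and 2. With such a term 2258 genes reached an unadjusted p under 0.05 by limma, and the lowest adjusted p was 0.232.

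Among the 10 genes with the smallest p below control, RPL27A, a protein of the large ribosomal subunit, stood at 6.99, 6.94 and 6.87 in the miR-100 arrays, against 7.44 and 7.29 in the control arrays. The groups did not overlap, and the log2 difference was -0.43 ± 0.12 (unadjusted p 0.0049 by limma). Ribosomal protein genes have many near-identical pseudogenes, so the signal of this probe set may be shared. It was also dim beside the median level of 13.8 of cytoplasmic ribosomal protein genes, and which transcript it measures was not tested. GNAI3, an inhibitory G protein alpha subunit, was measured at 10.29, 10.13 and 10.33 in the miR-100 arrays, against 10.50 and 10.61 in the control arrays. Here too no miR-100 array reached a control array, and the difference was -0.30 ± 0.09 (unadjusted p 0.0067 by limma), with -0.27 and -0.16 at its other probe sets and -0.22 after quantile normalization. The remaining genes by this rank lay between -0.28 and -0.26, and between -0.23 and -0.19 after quantile normalization, each without overlap. They were CENPH, a kinetochore protein, GALNT1, which starts mucin-type O-glycosylation, RBMXL1, an RNA-binding protein nearly identical to RBMX, NCK1, an SH2 and SH3 adaptor, ERCC8, a factor of transcription-coupled repair, CMTR2, a cap methyltransferase, and RTN4IP1, a mitochondrial oxidoreductase. The dimmer probe sets of ERCC8 had -0.09, -0.00 and -0.01, while those of NCK1 had -0.23, -0.14 and -0.14.

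The 10 genes with the smallest p above control had smaller differences, between 0.13 and 0.20. PTK2B, a tyrosine kinase of the focal adhesion family, stood at 7.39, 7.43 and 7.43 in the miR-100 arrays, against 7.16 and 7.26 in the control arrays. The miR-100 arrays were nearly equal and all above both control arrays, with a log2 difference of 0.20 ± 0.06 (unadjusted p 0.0066 by limma). POLRMT, the RNA polymerase that transcribes the mitochondrial genome, had 7.60, 7.56 and 7.73 in the miR-100 arrays, against 7.43 and 7.51 in the control arrays. Its groups did not overlap, yet the interval of the difference, -0.02 to 0.34, included 0 (0.16 ± 0.08). The kinase MINK1, the adaptor SH2B2, the nonsense-mediated decay factor SMG9, the poly(A)-binding protein PABPN1, the receptor CD300LG, the dynactin subunit DCTN1 and the matrix proteoglycan AGRN were also above control without overlap, while the antisense transcript SNTG2-AS1 overlapped. Dimmer probe sets did not all follow. They had 0.04, 0.01 and -0.07 for CD300LG, 0.07, -0.13 and 0.06 for AGRN, and -0.01, 0.03 and 0.20 for MINK1. Those of SMG9 had 0.02 and 0.06, those of POLRMT 0.08 and -0.01, and that of PTK2B 0.11.

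**Figure D1:**
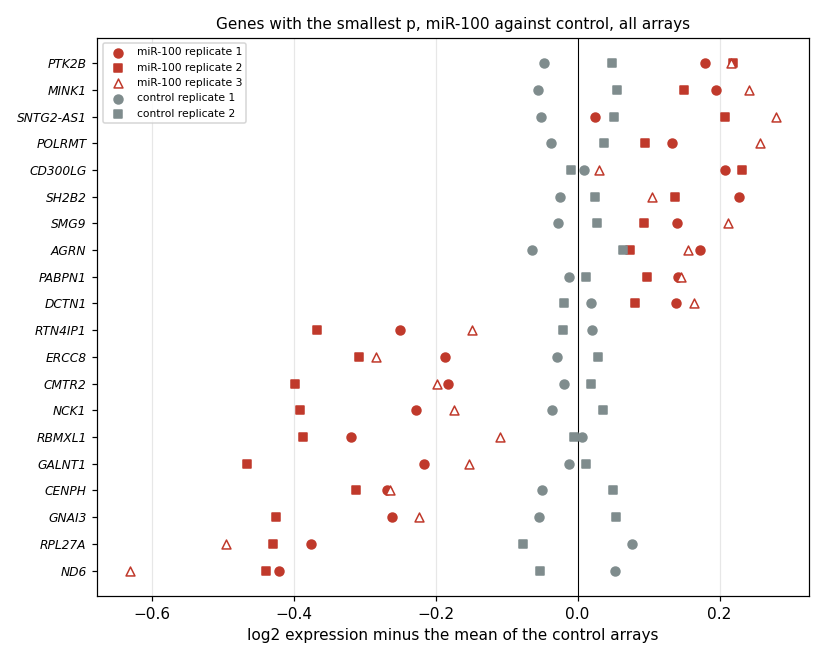
Log2 expression of the 20 genes named by rank over all arrays, each array shown as its difference from the mean of the 2 control arrays (x axis); filled circles and squares are replicates 1 and 2, open triangles miR-100 replicate 3, red miR-100 and grey control. ND6 lies farthest below control, with replicate 3 the lowest at -0.63, and the points above control stay within 0.28 of the control mean.

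In replicates 1 and 2 alone, where both groups carry the same numbers, most bright genes lay below control with miR-100. Among the 5553 genes with a mean level of at least 8, 4389 (79.0%) had a lower mean, with a median log2 difference of -0.14, against -0.01 over all 19775 genes. The median was -0.08 for genes at a level of 7 to 8, -0.14 at 8 to 9, -0.16 at 9 to 10, -0.14 at 10 to 11, -0.09 at 11 to 12, and 0.01 at 12 and above. Below a level of 6 it was 0.03. Quantile normalization, which gives all arrays the same distribution, left medians between -0.03 and 0.01 over these ranges of level. The control arrays themselves differed by level too, by up to 0.14 in the median of replicate 2 minus replicate 1, at a level of 11 to 12. Genes of this brightness that are named below control move with the shift, while those named above control move against it. The part of the shift in each difference was not tested, and quantile-normalized values are given beside the differences of many bright genes, though not of all.

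**Figure D2:**
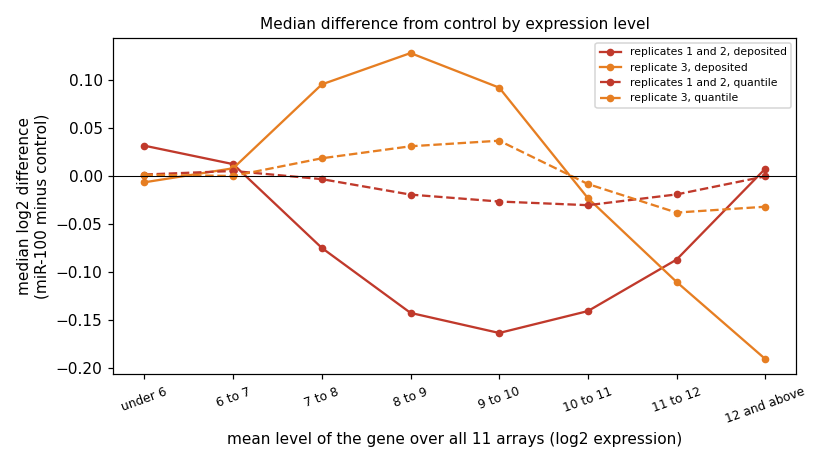
Median log2 difference between miR-100 and the mean of the control arrays (y axis) over genes grouped by mean level in all 11 arrays (x axis, log2), for replicates 1 and 2 (red) and replicate 3 (orange), in the deposited values (solid) and after quantile normalization (dashed). In the deposited values replicates 1 and 2 dip to -0.16 at a level of 9 to 10 where replicate 3 is above control, and the quantile-normalized lines stay within 0.04 of 0.

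No gene passed the adjusted threshold in replicates 1 and 2 by limma (0.0% of genes), and the lowest adjusted p was 0.106. An unadjusted p under 0.05 was reached by 3412 genes (17.3%), 603 above control (3.05%) and 2809 below (14.2%), so that 17.7% of them were above. After quantile normalization it was reached by 1251 above (6.33%) and 942 below (4.76%), a share above of 57.0%. The direction of the balance therefore turned with the scaling. The arrays did not overlap in 9149 genes (46.3%), 3538 above control (17.9%) and 5611 below (28.4%). Among genes with a level of at least 8, an unadjusted p under 0.05 was reached by 37.6% below control and 2.7% above, and after quantile normalization by 7.31% below and 12.9% above.

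HMGA1, a chromatin protein of the high mobility group, was 11.13 and 10.94 in miR-100 replicates 1 and 2, against 10.57 and 10.73 in the control arrays. Both miR-100 arrays were above both control arrays, whereas replicate 3, at 10.40, was below them. The log2 difference of replicates 1 and 2 was 0.39 ± 0.09 (adjusted p 0.106 by limma), and 0.47 after quantile normalization (adjusted p 0.0657), while a dim second probe set had 0.00. MARCKSL1, an actin-binding substrate of protein kinase C, behaved alike, with 11.63 and 11.53 in miR-100 replicates 1 and 2 and 10.92 in replicate 3, against 11.20 and 11.32 in the control arrays. Its difference in replicates 1 and 2 was 0.32 ± 0.08, and 0.40 after quantile normalization. The zinc finger factor MAZ, the AP-1 family repressor JDP2, the Wnt cofactor PYGO2, the GTPase ARF3, and SLC2A4RG, FAM89B, MEX3D and NAT14 complete the 10 genes with the smallest p above control. Their differences were 0.31 to 0.36 in the deposited values and 0.40 to 0.48 after quantile normalization. In replicates 1 and 2 dimmer probe sets had -0.155 for JDP2, -0.07 for PYGO2, -0.04 to 0.01 for MEX3D and -0.01 to 0.10 for SLC2A4RG. Those of ARF3, FAM89B and MAZ lay above control, by 0.15 to 0.26. In all 10 genes replicate 3 was below the control mean, so all 10 overlapped with control over all arrays.

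EME1, partner of the MUS81 endonuclease that cuts branched DNA, was 7.84 and 7.89 in miR-100 replicates 1 and 2 and 8.22 in replicate 3, against 8.24 and 8.37 in the control arrays. Every miR-100 array lay below control, replicate 3 by the least. The difference in replicates 1 and 2 was -0.44 ± 0.09 (adjusted p 0.106 by limma), and -0.32 after quantile normalization, while a dimmer probe set had 0.03. ND6 was again among the 10 genes with the smallest p below control, with -0.43 ± 0.08 in replicates 1 and 2 and -0.30 after quantile normalization. The others were DDX5, an RNA helicase that also assists primary microRNA processing, ZC3H13, a member of the RNA adenosine methylation complex, ZBTB20, a transcription repressor, UFSP2, a protease of the UFM1 modifier, PPWD1, a cyclophilin of the spliceosome, UAP1, which makes UDP-N-acetylglucosamine, ATP11B, a lipid flippase, and RARS2, the mitochondrial arginyl-tRNA synthetase. Their differences were -0.41 to -0.37 in the deposited values and -0.36 to -0.24 after quantile normalization. In replicates 1 and 2 dimmer probe sets had -0.17 to 0.08 for ATP11B, 0.01 for PPWD1, and -0.17 and 0.09 for ZC3H13. Those of ZBTB20 had -0.275 to -0.03, and those of RARS2 -0.28 to 0.02. In ZC3H13, PPWD1, UAP1, ZBTB20 and RARS2 replicate 3 was above both control arrays.

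**Figure D3:**
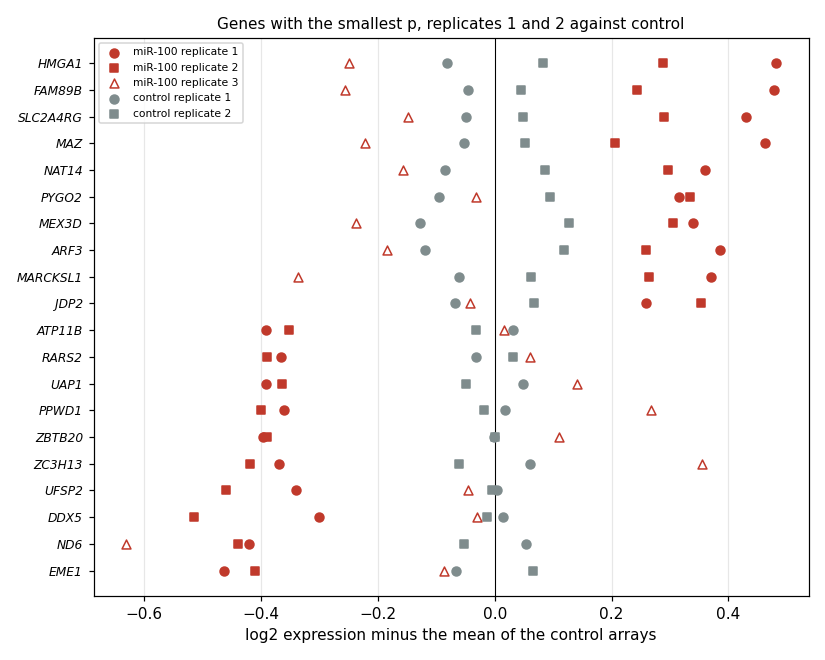
Log2 expression of the 20 genes named by rank in replicates 1 and 2, each array shown as its difference from the mean of the control arrays (x axis), with symbols for group and replicate as in the legend. The upper 10 genes have miR-100 replicates 1 and 2 to the right of control and replicate 3 (open triangles) left of the control mean, and in the lower 10 ND6 is the gene with replicate 3 farthest below control, at -0.63.

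Messenger RNAs reported as targets of the family were described as a list of 31 genes, of which 27 were measured. None passed the adjusted threshold in either comparison, as was the case for all genes. Over all arrays 16 of the 27 had a lower mean with miR-100, with a median log2 difference of -0.02, against 54.0% of all genes and a median of -0.01. In replicates 1 and 2 the same number, 16 of 27, had a lower mean and the median was -0.10, against 54.3% and -0.01 for all genes and -0.14 for genes with a level of at least 8. An unadjusted p under 0.05 was reached by 5 of 27 below control and 0 above, against 14.2% and 3.05% of all genes and 37.6% and 2.7% of bright genes. After quantile normalization the median was -0.02, with 0 below and 2 above at that p, against 4.76% and 6.33% of all genes. These shares are near the background. In replicate 3 the median difference from the control mean was 0.05, with 8 of 27 below.

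FKBP5, an immunophilin that joins HSP90 in glucocorticoid receptor complexes, stood at 10.99, 10.74 and 10.99 in the miR-100 arrays, against 11.09 and 11.03 in the control arrays. All 3 miR-100 arrays were below control, and replicate 2 was the lowest. The difference in replicates 1 and 2 was -0.20 ± 0.09 (unadjusted p 0.034 by limma), and -0.12 after quantile normalization (unadjusted p 0.17). Its other probe sets had -0.19 and, for a dim one, -0.02. RAP1B, a small GTPase of the Ras family, was 11.68, 11.45 and 11.54 in the miR-100 arrays, against 11.72 and 11.78 in the control arrays, a difference of -0.18 ± 0.09 in replicates 1 and 2 (unadjusted p 0.048), and -0.12 after quantile normalization. FKBP5, RAP1B and THAP2, a protein with a DNA-binding THAP domain, were the 3 of 27 listed targets with every miR-100 array below control, against 6.19% of all genes. PPFIA3, a liprin of synaptic scaffolds, was the 1 with every array above, against 7.18% of all genes, at 7.15, 7.11 and 7.07 in the miR-100 arrays, against 6.98 and 6.98 in the control arrays.

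MTOR had 6.87 and 6.88 in miR-100 replicates 1 and 2 and 7.36 in replicate 3, against 7.07 and 6.99 in the control arrays. Replicates 1 and 2 were below both control arrays and replicate 3 above them. The difference was -0.15 ± 0.08 in replicates 1 and 2 (unadjusted p 0.072 by limma), and 0.01 over all arrays with an interval of -0.35 to 0.37. A dimmer probe set of MTOR had 0.13 in replicates 1 and 2 and 0.15 over all arrays, the opposite direction, and the mean of both probe sets had -0.01 in replicates 1 and 2. SMARCA5, the ATPase of ISWI chromatin remodellers, showed the same order, with 10.08 and 10.16 in replicates 1 and 2 and 10.52 in replicate 3, against 10.31 and 10.42 in the control arrays. Its 3 probe sets had -0.24, -0.26 and -0.23 in replicates 1 and 2, and the brightest had -0.12 after quantile normalization (unadjusted p 0.0069 and 0.145). IGF1R was 7.73 and 7.98 in replicates 1 and 2 and 8.35 in replicate 3, against 8.01 and 8.18 in the control arrays. The difference was -0.24 ± 0.10 (unadjusted p 0.020), and -0.14 after quantile normalization. Its probe sets did not share a direction, with -0.11, -0.07, 0.07 and 0.15 at the dimmer ones. NMT1, an N-myristoyltransferase, was the fifth target past an unadjusted p of 0.05, with -0.19 ± 0.09, and -0.05 after quantile normalization. The receptor BMPR2 and the Argonaute gene AGO2 had -0.16 each in replicates 1 and 2, and -0.05 and -0.03 after quantile normalization. SMARCD1, BAZ2A and KDM6B had -0.01, 0.05 and 0.11, and 0.09, 0.12 and 0.21 after it.

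**Figure D4:**
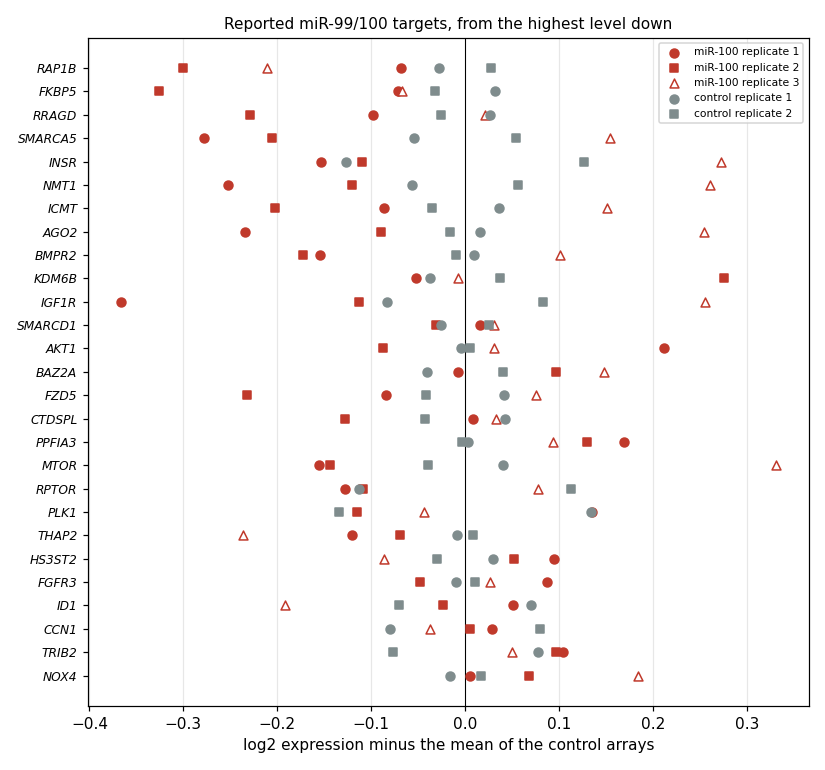
Log2 expression of the 27 measured reported targets, ordered from the highest mean level at the top, each array shown as its difference from the mean of the control arrays (x axis), with symbols for group and replicate as in the legend. In the upper part, down to IGF1R, filled red symbols mostly lie left of control and the open triangles of replicate 3 mostly right of it, and FKBP5, RAP1B and THAP2 have all 3 miR-100 arrays on the left.

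Genes of the mTOR and PI3K pathway were followed as a list of their own. In replicates 1 and 2, 26 of 37 had a lower mean, with a median of -0.11, and -0.04 after quantile normalization. The lower share was 54.3% of all genes and 79.0% of genes with a level of at least 8, which 19 of the 37 reached. AKT1S1, which encodes the mTORC1 inhibitor PRAS40, was the member with the smallest p over all arrays and lay above control, with 6.37, 6.21 and 6.08 in the miR-100 arrays, against 5.98 and 6.04 in the control arrays. Its difference was 0.21 ± 0.09 over all arrays and 0.28 ± 0.08 in replicates 1 and 2 (adjusted p 0.112 by limma). The probe set used was dim, and the other probe set of AKT1S1 had 0.01 in each case. The Rag GTPase RRAGA had -0.22 ± 0.08 in replicates 1 and 2, and -0.07 after quantile normalization.

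Other groups were ordered by their medians in replicates 1 and 2. Heat shock proteins and chaperonin subunits had the lowest, -0.25, with 19 of 22 below control, 12 of them at an unadjusted p under 0.05 and 0 above, a share to be read against the 37.6% of all bright genes. After quantile normalization the median was -0.14, with 10 of 22 below and 2 above at that p, against 7.31% and 12.9% of bright genes. The mean level of the list was 10.27, 10.15 and 10.45 in the miR-100 arrays, against 10.39 and 10.37 in the control arrays, so replicates 1 and 2 were below control and replicate 3 above. CCT8, a subunit of the chaperonin that folds actin and tubulin, had -0.28 ± 0.08 in replicates 1 and 2 and -0.26 after quantile normalization, and CHORDC1, an HSP90 cochaperone, had -0.25 ± 0.11 and -0.11.

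Mitotic genes had a median of -0.20 with 33 of 40 below control, and DNA replication genes -0.19 with 36 of 39. An unadjusted p under 0.05 was reached below control by 24 and 19 of them, and above by 0 and 1, against 37.6% and 2.7% of bright genes. After quantile normalization the medians were -0.10 and -0.09, 4 and 7 members were below at that p and 3 and 1 above, against 7.31% and 12.9% of bright genes. PRIM1, the catalytic subunit of DNA primase, was 9.60, 9.35 and 9.63 in the miR-100 arrays, against 9.74 and 9.83 in the control arrays, and so was below control in all 3 (-0.26 ± 0.09 over all arrays, unadjusted p 0.014 by limma, and -0.18 after quantile normalization). FBXO5, the EMI1 inhibitor of the anaphase-promoting complex, was also below control in all 3, with -0.16 ± 0.07, and -0.09 after quantile normalization.

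Of the microRNA machinery, 27 of 28 genes had a lower mean in replicates 1 and 2, with a median of -0.18, and -0.07 after quantile normalization. Among genes with a level of at least 8, which 19 of the 28 reached, 79.0% had a lower mean in replicates 1 and 2, with a median of -0.14. RAN, the GTPase that drives export of precursor microRNAs from the nucleus, had -0.22 ± 0.09 and -0.21, and CNOT7, a deadenylase of the CCR4-NOT complex, -0.24 ± 0.09 and -0.17. Proteasome genes, all 29 of them at that level, had a median of -0.18 with 25 of 29 below, and -0.08 after quantile normalization. Over all arrays each of the 29 had a lower mean, with a median of -0.11, against 4348 of 5553 bright genes and -0.06. After quantile normalization 22 of the 29 were lower over all arrays, with a median of -0.04, against 2791 of 5553 and -0.00. For the lid subunit PSMD12 the levels were 9.67, 9.50 and 9.88 in the miR-100 arrays, against 9.96 and 9.89 in the control arrays, a difference of -0.25 ± 0.10 over all arrays, and -0.17 after quantile normalization.

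The 2 lists with the highest median level, oxidative phosphorylation and the cytoplasmic ribosome, had medians above control in replicates 1 and 2. Nuclear genes of oxidative phosphorylation had a median of 0.07 in replicates 1 and 2, with 22 of 65 below control, and 0.12 after quantile normalization. At an unadjusted p under 0.05, 4 were above and 8 below, and after quantile normalization 25 of 65 were above and 4 below, against 12.9% and 7.31% of bright genes. Their mean level was 11.37, 11.26 and 11.11 in the miR-100 arrays, against 11.20 and 11.39 in the control arrays, so the control arrays alone spanned both miR-100 replicates 1 and 2. Cytoplasmic ribosomal protein genes had a median of 0.07, and 0.00 after quantile normalization. Mitochondrial ribosomal protein genes had -0.11, and 0.02 after quantile normalization, a change of sign. Among them MRPL3, a large-subunit protein, was below control in all arrays, with 11.52, 11.22 and 11.39 in the miR-100 arrays, against 11.67 and 11.64 in the control arrays (-0.28 ± 0.10 over all arrays, unadjusted p 0.014 by limma, and -0.21 after quantile normalization).

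**Figure D5:**
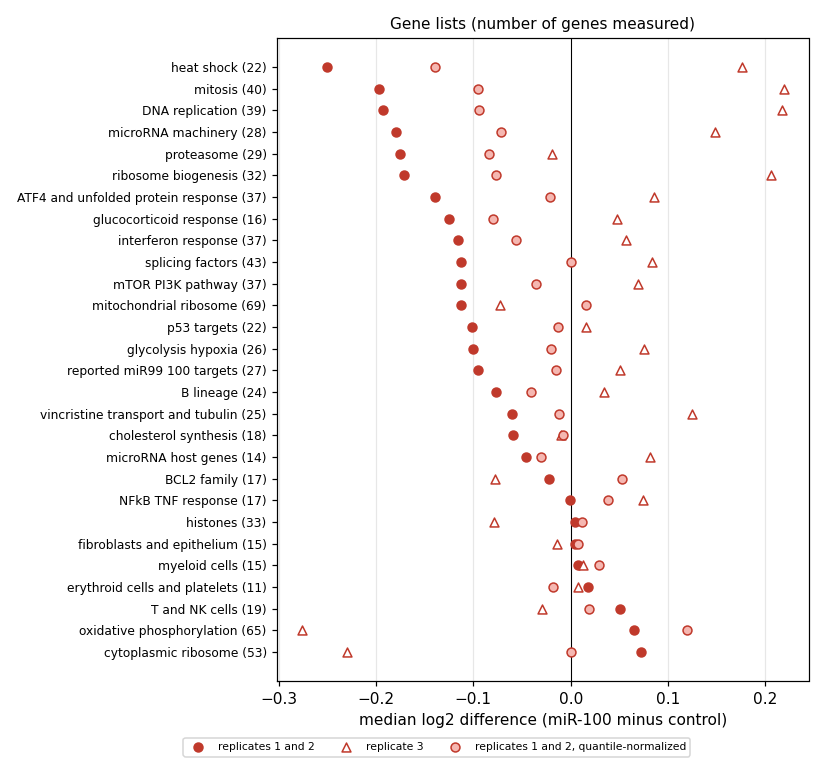
Median log2 difference between miR-100 and the mean of the control arrays (x axis) for each of the 28 gene lists, with the number of measured genes in brackets, for replicates 1 and 2 (filled red), replicate 3 (open triangles) and replicates 1 and 2 after quantile normalization (pale). Heat shock, mitosis and DNA replication lie left of 0 in replicates 1 and 2 and right of it in replicate 3, while oxidative phosphorylation and the cytoplasmic ribosome do the reverse in the deposited values.

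Among genes linked to vincristine and cell survival none passed the adjusted threshold. ABCC2, a drug exporter, was dim, with 5.62, 5.69 and 5.51 in the miR-100 arrays, against 5.54 and 5.24 in the control arrays. Replicate 3 lay between the control arrays, and the difference was 0.21 ± 0.10 over all arrays and 0.26 in replicates 1 and 2. ABCB1, the gene of the drug exporter P-glycoprotein, had 0.03 ± 0.11 over all arrays, with an interval of -0.21 to 0.26. STMN1, whose product destabilises microtubules, was 11.11, 10.78 and 11.13 in the miR-100 arrays, against 11.18 and 11.10 in the control arrays, and overlapped with control (-0.14 over all arrays, and -0.06 after quantile normalization). BCL2, an inhibitor of apoptosis, had 10.64, 10.52 and 10.57 in the miR-100 arrays, against 10.70 and 10.78 in the control arrays. Its groups did not overlap, and the difference was -0.16 ± 0.10 over all arrays (unadjusted p 0.15 by limma) and -0.09 after quantile normalization. Dimmer probe sets of BCL2 had -0.07, 0.01 and -0.02 over all arrays, and -0.02, 0.08 and 0.02 in replicates 1 and 2. BAK1, a promoter of apoptosis, had 0.24 ± 0.09 in replicates 1 and 2 and 0.31 after quantile normalization, with replicate 3 at 7.18 between the control values of 7.16 and 7.24. The host transcript MIR100HG was dim, with 4.79, 4.70 and 4.89 in the miR-100 arrays, against 4.91 and 5.03 in the control arrays.

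Replicate 3 was set beside the same control arrays with no test, being 1 array. It was below both control arrays in 33.1% of genes and above both in 43.0%. Its median difference from the control mean was 0.13 for genes at a level of 8 to 9 and -0.19 at 12 and above. Genes of mitosis and DNA replication had medians of 0.22 each and heat shock genes 0.18, while oxidative phosphorylation had -0.28 and the cytoplasmic ribosome -0.23. After quantile normalization these were 0.17, 0.18, 0.21, -0.19 and -0.02, so the ribosomal value changed most. The same direction was seen within the other treatments when replicate 3 was set against their replicates 1 and 2. The medians of mitotic genes were 0.41 with miR-100, 0.24 with miR-99a and 0.26 with both, and those of oxidative phosphorylation were -0.33, -0.64 and -0.63. For all genes with a level of at least 8 they were 0.23 with miR-100, -0.01 with miR-99a and -0.00 with both.

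The genes lowest in miR-100 replicate 3 relative to replicates 1 and 2 were SDHAF3, an assembly factor of succinate dehydrogenase, with -0.81, BBLN with -0.78, TMEM167A with -0.75, SMIM30 with -0.74 and the Mediator subunit MED21 with -0.74. The highest were AKAP9, a scaffold of the centrosome and Golgi, with 0.92, LOC285097 with 0.90, ASPM, a spindle pole protein, with 0.88, the DNA helicase HELQ with 0.87 and the kinetochore protein CENPF with 0.87. The same genes differed in the same direction in miR-99a replicate 3, by -1.12 to -0.85 for the 5 lower ones and 0.88 to 1.11 for the 5 higher ones. For TMEM167A, miR-100 replicates 1 and 2 differed from control by 0.22 at the probe set used and by -0.25 at another bright one. Its place here therefore rests on the probe set chosen. HELQ, AKAP9 and ASPM each differed from control by -0.36 in replicates 1 and 2 at the probe set used. Their dimmer probe sets had -0.16 to -0.02 for HELQ, -0.17 and -0.12 for AKAP9, and -0.24 and -0.08 for ASPM. CENPF had -0.38, and -0.36 and 0.04 at dimmer ones, LOC285097 -0.16 and -0.18, and MED21 0.16 and 0.11. BBLN had 0.34, and 0.31, 0.21 and 0.02 at dimmer ones.

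Set against miR-99a, which differs by 1 base outside the seed and was given at the same dose, miR-100 gave no called gene by limma without pairing (0.0%). An unadjusted p under 0.05 was reached by 194 genes (0.981%), 0.501% higher and 0.48% lower, and arrays did not overlap in 922 (4.66%). ND6 stood at 9.59, 9.57 and 9.38 in the miR-100 arrays, against 9.97, 9.91 and 9.82 in the miR-99a arrays. No miR-100 array reached any miR-99a array, and the log2 difference was -0.39 ± 0.11 (adjusted p 1.0). With the replicate number as a block, which pairs arrays of the same number, ND6 was lower with miR-100 at -0.39 ± 0.08 (adjusted p 0.0479 by limma, 1 gene or 0.00506% of those tested). A single term for replicate 3 instead of the block gave 0 genes, with a lowest adjusted p of 0.197, and after quantile normalization the block gave 0 genes. PRPF6, a splicing factor of the U4/U6.U5 particle, had 8.28, 8.47 and 8.71 in the miR-100 arrays, against 8.77, 8.85 and 8.81 in the miR-99a arrays, a difference of -0.32 ± 0.11 that did not pass with or without the block. Over the reported targets the median of miR-100 minus miR-99a was -0.04, with 22 of 27 lower, against -0.01 and 54.6% of all genes. Among genes with a level of at least 8, which 12 of the 27 reached, the median was -0.02 with 3618 of 5553 lower. Lists not chosen as targets varied, with 23 of 29 proteasome genes lower and 18 of 65 genes of oxidative phosphorylation.

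Against both oligonucleotides together, which hold miR-100 at the lower dose of 33 µM, no gene was called either (0.0%), with 337 genes (1.7%) at an unadjusted p under 0.05 and 969 (4.9%) without overlap. The BAF complex subunit ACTL6A had 9.98, 9.85 and 10.01 in the miR-100 arrays, against 9.62, 9.67 and 9.78 in the arrays of both. It was above in every array, by 0.26 ± 0.07 (unadjusted p 0.0025 by limma), and by 0.25 after quantile normalization. The smallest p by rank belonged to RPS15, a small-subunit ribosomal protein, with 13.69, 13.65 and 13.70 in the miR-100 arrays, against 13.97, 13.99 and 13.85 in the arrays of both, a difference of -0.26 ± 0.06. YBX1, GAPDH, RPS4X and RPS3, all near the top of the scale, had -0.27 to -0.19. After quantile normalization these 5 genes had -0.10 to -0.01, and all genes at 12 and above had a median of -0.13 in the deposited values. ND6 was similar in the arrays of both, at 9.72, 9.77 and 9.30, with a difference of -0.09 ± 0.11 and an interval of -0.34 to 0.17.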

How the data were processed

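RNA of 11 samples was measured on Affymetrix human whole-genome arrays, 3 of them with miR-100 and 2 with scrambled control. The deposited values are on a log2 scale, judged from their range. How the authors summarised and normalized the probe sets is not given in the sources used here. Array medians are nearly equal while the distributions differ, so differences that vary with brightness can remain between arrays. Arrays carry no read depth, and the number of arrays limits the precision.

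The table holds 54675 probe sets. Control probe sets (62), those listed with several genes (1801) and those with none (11777) were left out. The remaining 41091 were named through the platform annotation, updated to RefSeq by gene ID (41037 matched, 54 did not). The brightest probe set by mean level stood for each gene, with no filter on dim genes.

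A mean per group was fitted with limma 3.58.1 in R 4.3.3 (lmFit, eBayes), over all 11 arrays or, for replicates 1 and 2, over the 8 arrays with those numbers. Tests were 2-sided and adjusted by Benjamini-Hochberg over all genes of a comparison, with 0.05 as the threshold. The script was tested on simulated data. Each of the 4 comparisons was recomputed with quantile normalization, genes at or above the median level, a replicate block, replicate 3 as a term (the 3 comparisons over all arrays), only the groups compared, an intensity trend with robust moderation, the mean of a gene's probe sets, and without each array.

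Among genes with a mean of at least 7, the rule named the 10 smallest p in each direction of a comparison with control, since none passed, the 5 smallest against the other oligonucleotides, and the 5 largest differences of replicate 3 from replicates 1 and 2. It also named the reported targets, 2 members of each other list and genes tied to the study. The 28 lists were written from general knowledge. The members and lists were chosen with earlier results of these data known.

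Replicate numbers were checked as a pairing, with a minimum of 0.1 for the correlation of deviations from group means across genes. Same-numbered arrays of miR-100 and miR-99a correlated at 0.645, 0.297 and 0.694, and those of miR-100 and both oligonucleotides at 0.541, 0.168 and 0.668, so they passed that minimum in every pair. This mainly sets replicate 3 apart: miR-100 replicate 2 correlated better with replicate 1 of miR-99a and of both, at 0.383 and 0.423, than with their replicates 2. The block changed a call in 1 of these comparisons, given beside it.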

Additional observations from a re-analysis of the deposited data

Results flagged for a closer look

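ND6 differed between miR-100 and miR-99a by a test of the difference itself under 1 setting. With the replicate block the log2 difference of miR-100 minus miR-99a was -0.39 ± 0.08 (limma, adjusted p 0.0479, lower in 3 of 3 pairs of arrays), and it was the 1 gene of 19775 to pass. Without the block the adjusted p was 1.0, under a single term for replicate 3 the lowest adjusted p of any gene was 0.197, and after quantile normalization it was -0.37 with an adjusted p of 1.0.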

How the results depend on the processing

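All 4 comparisons gave 0 called genes as fitted, and 0 under quantile normalization, genes at or above the median level, only the groups compared, the intensity trend and the mean of probe sets. Leaving out each array in turn gave 0 to 0 in every comparison. The count at an unadjusted p under 0.05 ranged from 60 to 2836 over all arrays and from 2193 to 4037 in replicates 1 and 2. It was 1585 without miR-100 replicate 3 and 2236 in replicates 1 and 2 without miR-100 replicate 2. With replicate 3 as a term no gene was called over all arrays and 2258 reached that p. Of 165 named genes, 12 changed sign with quantile normalization in each comparison with control, none of them called, and of 28 list medians in replicates 1 and 2, 20 moved by more than the spread between replicates and 6 changed sign. The replicate block called 7 genes over all arrays, 2 higher (HMGA1, S1PR4) and 5 lower (ZNF91, CENPE, H3-3A, ND6, DNAH3), and 322 in replicates 1 and 2, 16 higher and 306 lower. With quantile normalization and the block together, chosen after seeing the data, it called 224 (205 higher, 19 lower) and 59 (54 higher, 5 lower), and 17 of the 59 were among the 322. In the comparison with miR-99a the block called 1 gene. Of the 7 genes called over all arrays, ZNF91 had -0.49 in the deposited values at the probe set used. The next brightest probe set of ZNF91 had -0.05 and the others -0.17 to 0.14. HMGA1 had 0.17, and -0.05 at a dim second probe set. The probe set of H3-3A was dim, and which transcript it measures was not tested. With quantile normalization and the block TMEM167A and MED21 reversed over all arrays, to 0.34 and 0.31 (adjusted p 0.0194 and 0.0336). The cause of the reversal was not tested. In the deposited values a second bright probe set of TMEM167A had -0.28 over all arrays and -0.25 in replicates 1 and 2. The one used had -0.03 and 0.22, so the values of TMEM167A rest on the probe set chosen. Whether the numbers pair miR-100 with control was not settled. The deviations of same-numbered arrays correlated at -0.019 and 0.148, and within replicates 1 and 2 at 0.096, just under the minimum of 0.1. The first 2 values cannot decide it, because the miR-100 mean includes replicate 3 and the deviations of 2 control arrays are always opposite. With 2 control arrays, the estimate of spread rests largely on the other groups.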

Other observations

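Some dimmer genes outside the rank rule, are named here after their values were seen. DNAH3, an axonemal dynein, was 6.92, 6.76 and 6.58 in the miR-100 arrays, against 7.25 and 7.26 in the control arrays. H3-3A, a replication-independent histone, was 6.01, 5.81 and 5.83 in the miR-100 arrays, against 6.34 and 6.38 in the control arrays. Both were without overlap, with log2 differences of -0.50 ± 0.13 and -0.48 ± 0.11, and neither passed the adjusted threshold by limma without a block. The other 4 probe sets of DNAH3 had 0.02, -0.02, -0.05 and 0.21 over all arrays, so the difference of DNAH3 rests on 1 probe set. The probe set of H3-3A was dim, and which transcript it measures was not tested. A fall in the messenger RNA of H3-3A therefore cannot be read from it. RPLP2, a ribosomal stalk protein, had 5.86, 5.72 and 5.56 in the miR-100 arrays, against 6.12 and 6.07 in the control arrays, a difference of -0.38, and its other probe set had -0.03. Both probe sets were dim beside the median level of 13.8 of cytoplasmic ribosomal protein genes, and which transcript they measure was not tested.

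Interferon-induced IFI44 was 8.40, 8.25 and 8.57 in the miR-100 arrays, against 8.62 and 8.61 in the control arrays, a difference of -0.21 ± 0.09 over all arrays and -0.29 in replicates 1 and 2, and -0.15 and -0.16 after quantile normalization. RAG2, a subunit of the V(D)J recombinase, was 8.58, 8.67 and 8.83 in the miR-100 arrays, against 8.87 and 8.94 in the control arrays, with -0.21 over all arrays and -0.15 after quantile normalization. In both genes the groups did not overlap and replicate 3 was nearest to control.

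The values of some control probe sets of the array did not match their names. The set named for bacterial bioB had 7.87 to 8.62 over the 11 arrays and another set for the same transcript 13.5 to 14.3. A set named for phage cre had 12.7 to 13.6 and its partner 5.10 to 5.29. For genes, the level of a probe set correlated with the mean of the gene's other probe sets at 0.538 (31839 probe sets), against 0.253 and 0.237 when the table was shifted by 1 line.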
